A study of Mus musculus with 24 samples.

Results

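The effect of elevated PRDM13 on the neural retina was set beside its effect on the eye cup of the same mice, in 12 of the 24 RNA sequencing libraries of the series. They came from all 6 mice given doxycycline (dox), and each mouse gave 1 neural retina and 1 eye cup, which holds the RPE, choroid and sclera. The other 12 libraries, from mice without dox, serve here only as background. PRDM13-OE mice carry 1 copy of a cassette at Rosa26 in which the ubiquitous EF-1α promoter drives the rtTA activator and the TRE3G promoter drives HA-tagged human PRDM13, so the insert can be switched on in every tissue of the eye. Wildtype littermates lack the cassette. Both genotypes are on the C57BL/6J background and both drank water with dox (2 mg/ml) and sucrose (10%) over 72 hours, starting at postnatal day 28, so dox itself is shared by all 4 groups of 3 libraries. Between 16092096 and 24908314 reads per library were counted on genes.

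PRDM13 is a zinc finger protein of the PR domain family that acts in neurons mainly as a transcriptional repressor, and in the healthy retina it marks amacrine cells. In a Tet-On mouse, dox lets rtTA bind the TRE promoter, which starts transcription of the inserted gene. Photoreceptors pass the light signal from opsins through transducin and phosphodiesterase to cyclic nucleotide-gated channels, and the RPE behind them renews the visual pigment and takes up shed outer segments. The comparison asks which effects of genotype were shared by retina and eye cup and which were limited to 1 of them. A positive interaction below means that the log2-fold change of PRDM13-OE over wildtype was larger in the eye cup than in the retina.

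The tissues matched their labels in part. RPE and visual cycle genes summed to between 316 and 437 CPM, the counts of a gene relative to its library total after TMM scaling, in the 6 retinas and to between 9747 and 26100 CPM in the 6 eye cups. Rod genes were not confined to the retina. Summed rod markers in the eye cups reached 19200, 8821 and 53160 CPM in PRDM13-OE mice 1, 2 and 3, compared with 66620, 51860 and 36330 CPM in wildtype mice 1, 2 and 3. In the retinas they reached 65180, 66860 and 72740 CPM in PRDM13-OE and 90730, 92510 and 88660 CPM in wildtype. The eye cup of PRDM13-OE mouse 3 therefore held as many rod transcripts as the wildtype eye cups, while those of mice 1 and 2 lay below all of them. Surface epithelium genes moved the other way, at 50460, 28410 and 9116 CPM in eye cups of PRDM13-OE mice and 9826, 10330 and 19880 CPM in those of wildtype mice. Skeletal muscle genes were at 1900, 4006 and 493 CPM in the former and at 988, 869 and 361 CPM in the latter. Lens crystallins summed to 12190 and 5469 CPM in wildtype retinas 1 and 2 but to 158 CPM in wildtype retina 3, and to between 29 and 51.2 CPM in the PRDM13-OE retinas. Wildtype mouse 3 was the only mouse without Xist counts, and its 4 Y-linked genes measured lay between 11.2 and 57.7 CPM in both tissues, against at most 0.204 CPM in the other mice. The part of these differences in the results was not tested.

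**Figure D1:**
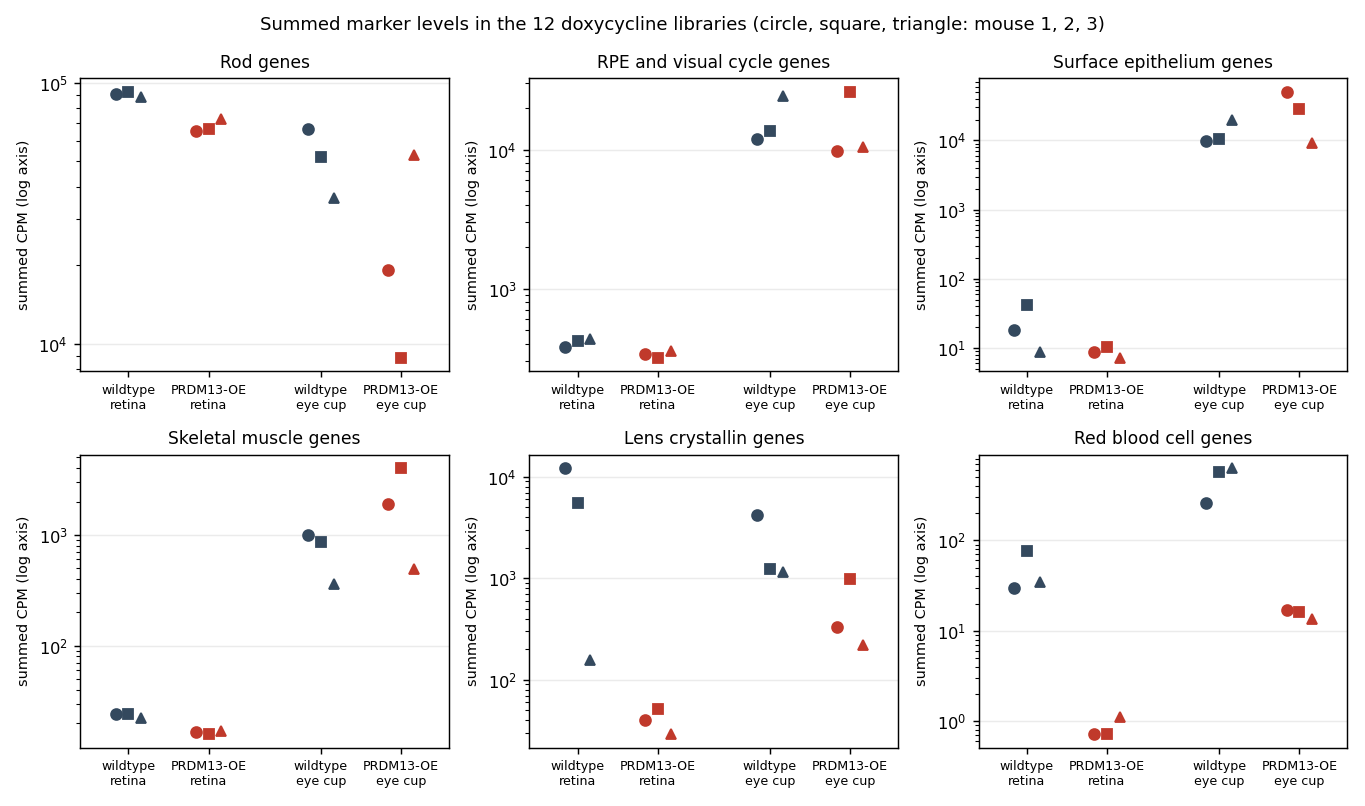
Summed CPM of 6 marker lists in each of the 12 libraries, on log axes, with wildtype in dark blue, PRDM13-OE in red, and circles, squares and triangles for mice 1, 2 and 3. Rod genes in the PRDM13-OE eye cups ran from 8820 to 53200 CPM, and red blood cell genes separated the genotypes in both tissues.

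More genes were called in the retina than in the eye cup when each tissue was fitted on its own. Of 23678 genes tested with edgeR's quasi-likelihood test, 187 rose and 330 fell in PRDM13-OE retinas (2.18% called, at an adjusted p below 0.05 and a log2-fold change past 1). The split was 283 and 290 with library size scaling, 240 and 232 with robust dispersion and 413 and 294 with voom. Eye cups gave 1 rise and 4 falls (0.0211%; 0.00422% higher and 0.0169% lower), and 1828 genes had an unadjusted p below 0.05, while DESeq2 called 87. The median standard error of a log2-fold change was 0.17 in the retina and 0.436 in the eye cup, and 0.501 for the interaction fitted with mouse as a block, so a count in one tissue cannot be set against that in the other as a size of effect. The order was the opposite in 1 edgeR fit of all 4 groups, with 38 retina and 49 eye cup calls, and without PRDM13-OE mouse 3, with 407 and 1839. The interaction called 0 genes (0%). Its smallest adjusted p was 0.749 and 1260 genes had an unadjusted p below 0.05, which is 5.32% of those tested. DESeq2 called 9 (0.038%). No gene was therefore called as limited to either tissue by edgeR, and 5 were called in both. That does not show that the other effects were equal: the 95% interval of the interaction reached 1.61 to either side for the median retina call. Of the 517 intervals, 355 included 0, compared with 22518 of the 23678 over all genes. The retina calls were chosen on libraries that the interaction also uses.

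The retina calls leaned the same way in the eye cup. Of the 187 genes that rose in the retina, 141 (75.4%) had an eye cup log2-fold change above 0, and of the 330 that fell, 211 (63.9%) had one below 0, where 57.9% of all genes had the same sign in both tissues. The median log2-fold change was 1.60 in the retina and 0.64 in the eye cup for the former, and −1.62 and −0.37 for the latter. The retina calls did not use the eye cup libraries, though these came from the same mice. There, the genotypes were apart in the direction of the retina sign for 143 of the 517 calls (27.7%), compared with 10.8% of all genes. The part that retinal transcripts in the eye cups had in this was not tested.

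**Figure D2:**
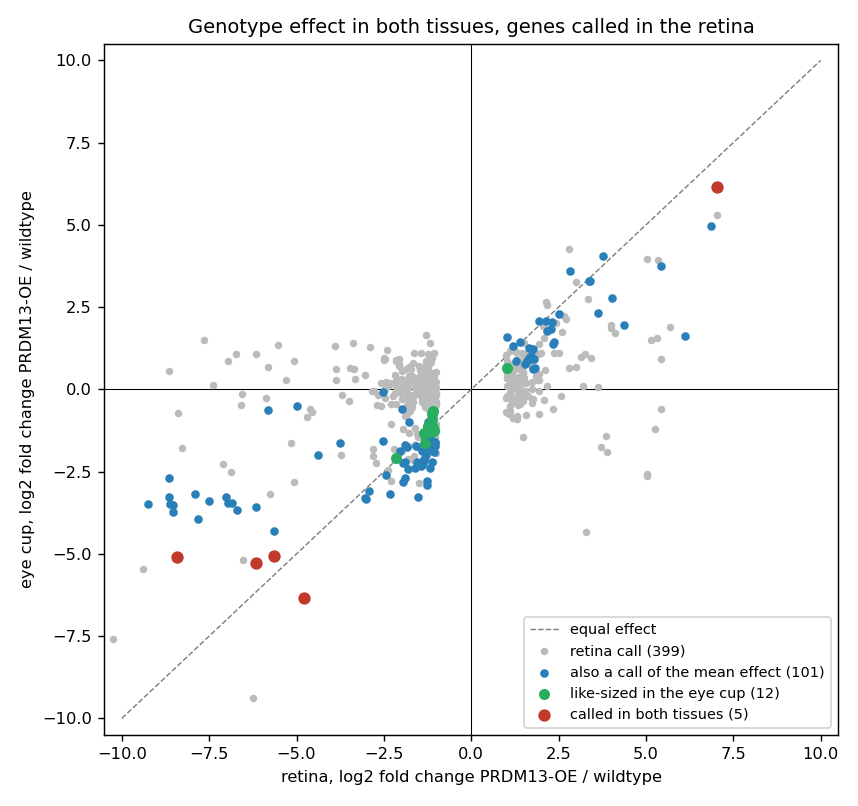
Log2-fold change of PRDM13-OE over wildtype in the retina (x axis) and in the eye cup (y axis) for the 517 retina calls, coloured by whether the mean effect was called, the eye cup effect was like-sized or the gene was called in both tissues. The 5 genes called in both tissues lie far from 0 on both axes, and the dashed line marks equal effects.

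DESeq2 called 4 genes higher and 28 lower in both tissues. The only gene called higher in both by edgeR was Gm13394, a processed pseudogene of Gapdh at chr2:28823622-28824621 (GRCm39, minus strand). Its level was 475, 456 and 487 CPM in the PRDM13-OE retinas and 4.15, 4.29 and 2.48 CPM in the wildtype retinas. Eye cup levels were 255, 270 and 582 CPM in PRDM13-OE and 8.32, 3.86 and 3.54 CPM in wildtype. The genotypes were far apart in each tissue. The log2-fold change was 7.04 ± 0.13 (SE) in the retina (adjusted p = 9.13e-14) and 6.16 ± 0.55 in the eye cup (adjusted p = 0.0266). The interaction was −0.93, with a 95% interval from −1.86 to 0.000186. The level did not follow dox: of the untreated PRDM13-OE mice, 2 and 3 had 472 and 450 CPM in the retina and 382 and 232 CPM in the eye cup, while mouse 1 had 4.60 and 3.47 CPM, as in untreated wildtype mice (2.26 to 4.96 CPM). Whether the libraries labelled as untreated PRDM13-OE mouse 1 match their genotype label was not tested, and untreated ranges that rest on them are also given without them.

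Reads on Gm13394 are hard to place. Its 1000 annotated bases differ from Gapdh at a single position, and 22 further genes are at least 99% identical to it over that length. The stretch around the difference is shown because it holds the only base that separates Gm13394 from Gapdh. The base that differs is in capitals, and in the GENCODE transcripts it is A346C, counted from the 5′ end of Gm13394, with the Gapdh base first. The Gapdh line is from its coding sequence, and the Gm13394 line lies at chr2:28824246-28824306 (GRCm39, minus strand).
Gm13394: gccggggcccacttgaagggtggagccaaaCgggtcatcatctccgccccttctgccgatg
Gapdh: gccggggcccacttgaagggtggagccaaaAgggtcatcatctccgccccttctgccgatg
Summed over the Gapdh family, the level with dox was 670 to 777 CPM in the PRDM13-OE retinas and 64.5 to 302 CPM in the wildtype retinas, and 311 to 1220 CPM against 205 to 252 CPM in the eye cups. Gm13394 itself made up 58.7% to 72.7% of that sum in the PRDM13-OE retinas and 47.6% to 86.8% in the PRDM13-OE eye cups, against at most 3.84% in wildtype. Without dox, the sums were apart in the retinas (371 to 614 CPM in PRDM13-OE, with 527 and 614 CPM in mice 2 and 3, and 60.6 to 304 CPM in wildtype). They overlapped in the eye cups (186 to 505 CPM in PRDM13-OE, with 505 and 269 CPM in mice 2 and 3, and 30.2 to 551 CPM in wildtype), and which copy the reads came from was not tested.

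The 4 genes called lower in both tissues by edgeR all encode adult globin chains, which carry oxygen in red blood cells. Hba-a1, an α-globin gene at chr11:32233511-32234465, was at 0.329, 0.255 and 0.450 CPM in the PRDM13-OE retinas and at 10.4, 30.3 and 12.9 CPM in the wildtype retinas. Eye cup levels were 6.95, 5.79 and 6.65 CPM in PRDM13-OE and 112, 248 and 300 CPM in wildtype. Its log2-fold change was −5.63 ± 0.45 in the retina and −5.08 ± 0.42 in the eye cup, with an interaction of 0.55 (95% interval −0.59 to 1.69). The β-globin gene Hbb-bs changed alike, at −6.17 ± 0.38 and −5.27 ± 0.37. Hbb-bt, the other adult β-globin gene, was at 0.441, 0.386 and 0.128 CPM in eye cups of PRDM13-OE mice and at 16.1, 31.1 and 32.9 CPM in wildtype. Hba-a2 had no counts in any PRDM13-OE retina, at least 14.6-fold lower than wildtype, and its eye cup log2-fold change was −5.11 ± 0.50.

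In each tissue, the 3 PRDM13-OE libraries lay far below the 3 wildtype libraries for every one of the 4 globins. Summed red blood cell genes were at 0.713 to 1.10 CPM in PRDM13-OE and 29.8 to 76.6 CPM in wildtype retinas, and at 13.6 to 17.0 CPM and 260 to 631 CPM in eye cups. In untreated PRDM13-OE mice they were at 26.5 to 61.4 CPM in retinas and 634 to 1320 CPM in eye cups (26.5 and 38.9 CPM, and 791 and 1319 CPM, in mice 2 and 3), so the low levels were seen with the insert and dox together. Alas2, which starts heme synthesis in red cell precursors, fell in the retina (log2-fold change −3.74 ± 0.52, adjusted p = 0.000199). It was at 3.58, 3.60 and 1.15 CPM in eye cups of PRDM13-OE mice and at 4.50, 9.503 and 12.0 CPM in wildtype, and there it did not pass the test. In bulk tissue, fewer cells of a type and less RNA per cell cannot be told apart, here or for the cell types that follow.

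The eye cup calls were few and depended on most of the mice: without PRDM13-OE mouse 1 or 2, or without wildtype mouse 2 or 3, the eye cups gave 0 calls and hence 0 shared genes, while the 5 calls were the same without wildtype mouse 1. Averaging the effect of genotype over both tissues drew on all 12 libraries, and 42 genes rose and 117 fell (0.672% called). This fit counts both libraries of a mouse as independent. With mouse as a random block in limma voom, 172 genes were called, 102 of the 159 among them. Of these 159, 115 were also retina calls, and 143 had no overlap between genotypes in either tissue. That held for 4.94% of all genes (1.51% higher and 3.43% lower), but the calls were made on the same libraries, so nothing is read from it. The count ranged from 18 without wildtype mouse 2 to 933 without PRDM13-OE mouse 3. It was 46 and 100 without PRDM13-OE mice 1 and 2 and 38 without wildtype mouse 1.

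Among the genes that rose on average without overlap, Fabp7 was the only protein-coding gene of the 6 with the largest change. It encodes a fatty acid-binding protein of immature glia and lies at chr10:57660977-57664546. Its level was 97.0, 94.4 and 88.2 CPM in the PRDM13-OE retinas and 0.437, 0.620 and 1.41 CPM in the wildtype retinas. Its eye cup levels were 48.8, 17.4 and 91.9 CPM in PRDM13-OE and 1.72, 2.97 and 0.575 CPM in wildtype. No libraries of the genotypes overlapped in either tissue, and the PRDM13-OE eye cups followed the order of their rod content. The mean log2-fold change was 5.88 ± 0.50 (adjusted p = 0.000251). The eye cup alone gave 4.95 ± 0.78 with an adjusted p of 0.461, and untreated libraries held between 0.651 and 8.35 CPM. The other 4 were Gm7135, Gm44541, Gm37759 and ENSMUSG00000120397, which have no well-known role and were at low levels: Gm7135 was at 1.70, 1.94 and 1.75 CPM in the PRDM13-OE retinas and at 1.99, 0.515 and 2.24 CPM in eye cups of PRDM13-OE mice, against at most 0.246 CPM in wildtype.

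Several genes that the study names had estimates of similar size in both tissues. Gulo, which in mice makes the enzyme for the last step of vitamin C synthesis, was at 6.53, 5.21 and 4.65 CPM in the PRDM13-OE retinas and at 22.3, 23.7 and 27.98 CPM in the wildtype retinas. Eye cups held 2.76, 2.96 and 4.22 CPM in PRDM13-OE and 15.5, 15.3 and 11.8 CPM in wildtype. The mean log2-fold change was −2.14 ± 0.15 (adjusted p = 7.37e-05), almost the same in each tissue on the CPM scale. Cckbr, a cholecystokinin receptor, had log2-fold changes of −2.45 in the retina and −2.62 in the eye cup. Htr3a, a serotonin-gated channel, had −2.91 and −3.09. Vdr, the vitamin D receptor, went up, by 1.94 and 2.07. The 95% intervals of the interaction were wide, at −1.55 to 1.05 for Cckbr, −2.16 to 1.94 for Htr3a and −1.46 to 1.42 for Vdr, so a difference between the tissues was not bounded within 1 for these genes as it was for Gulo (−0.75 to 0.89). For Cckbr, Htr3a and Vdr the genotypes did not overlap in either tissue, and their mean effect passed the test (adjusted p = 0.00153, 0.00646 and 0.0167). Vdr in the PRDM13-OE eye cups, at 29.3, 16.8 and 6.14 CPM, followed the order of the surface epithelium genes.

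**Figure D3:**
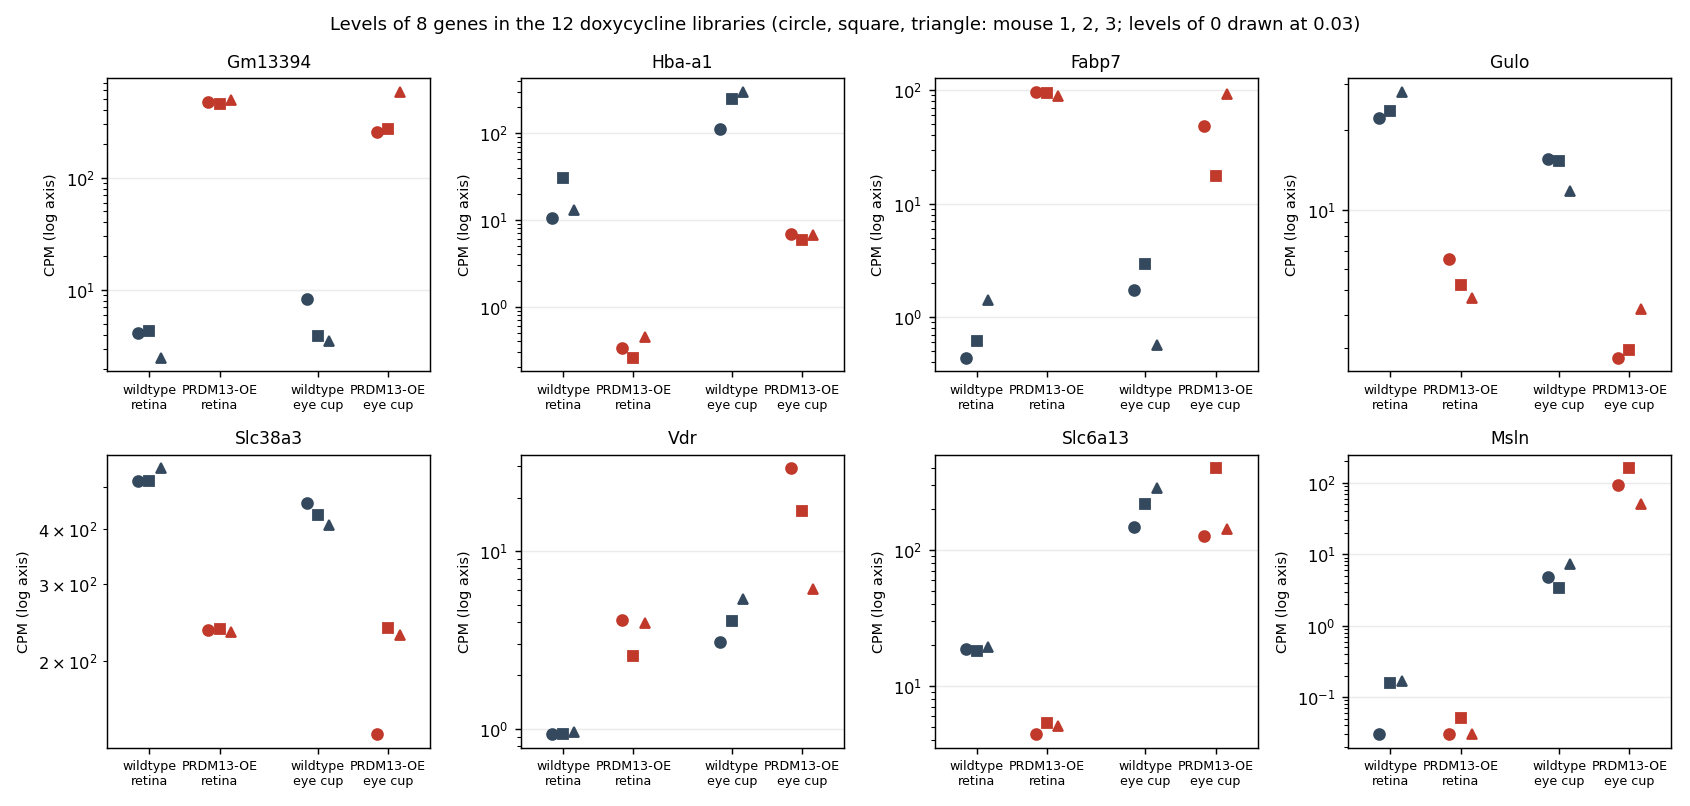
CPM of 8 genes in each of the 12 libraries on log axes (levels of 0 drawn at the foot), with genotype and tissue along the x axis and circles, squares and triangles for mice 1, 2 and 3. Gm13394 and Fabp7 were higher and Hba-a1 lower in all PRDM13-OE libraries of both tissues, while Msln differed between genotypes in the eye cup.

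A call in 1 tissue and a missed threshold in the other does not bound a difference, so retina calls were counted as like-sized in the eye cup when the 95% interval of the interaction stayed within 1 of 0 and the sign was the same. There were 12 of 517. Slc25a35, a mitochondrial carrier, was the only rise, with log2-fold changes of 1.02 in the retina and 0.64 in the eye cup. The falls were Slc38a3, Ptp4a3, Kdr, Epb41l5, F3, Mef2c, Eepd1, Itga9, Ppm1j, Gulo and Dglucy. The glutamine transporter Slc38a3 was at 236, 237 and 233 CPM in the PRDM13-OE retinas and at 516, 515 and 553 CPM in the wildtype retinas. Eye cups held 136, 237 and 230 CPM in PRDM13-OE and 460, 432 and 408 CPM in wildtype. Its log2-fold changes of −1.14 ± 0.05 and −1.10 ± 0.26 gave an interaction of 0.02 (95% interval −0.61 to 0.65).

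Kdr encodes the main VEGF receptor of endothelial cells and is also found in retinal neurons and glia. It was at 106, 85.7 and 85.4 CPM in PRDM13-OE and 242, 241 and 231 CPM in wildtype retinas, and at 38.6, 51.2 and 65.9 CPM and 191, 169 and 127 CPM in eye cups. Plvap, another endothelial gene, differed by 0.18 and 0.11 on the log2 scale and did not pass the test. Of the 13 endothelial markers, 1 fell in the retina (1.39% of all genes) and 0 were called in the eye cup (0.0211%). The transcription factor Mef2c was at 35.9, 35.3 and 41.5 CPM in PRDM13-OE and 91.8, 97.4 and 74.8 CPM in wildtype retinas. The eye cups held 15.3, 23.5 and 25 CPM and 65.0, 58.7 and 34.3 CPM. Ptp4a3, a phosphatase, had log2-fold changes of −1.09 and −1.17, and F3, the tissue factor that starts clotting, of −1.36 and −1.33. For these 5 falls, Slc38a3 included, the genotypes were apart in both tissues on the CPM scale, the eye cup of PRDM13-OE mouse 3 among them. Per rod transcript, a scaling explained with the photoreceptor genes, the eye cup genotypes overlapped for all 12 like-sized genes, Gulo included, while the retina genotypes stayed apart. The median log2-fold change of the 12 was −0.76 in the retina and 0.08 in the eye cup on that scale, against −1.13 and −1.14 on the CPM scale. Slc38a3 had −0.76 and 0.11, Mef2c −0.82 and −0.02, Kdr −0.97 and −0.39, and Gulo −1.77 and −0.84. Of the 12, 11 did not reach the 4-fold higher level in the retina than in the eye cup of untreated wildtype mice to which that scaling was otherwise limited.

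Photoreceptor genes also fell in the retina and on average over the tissues. Of 13 cone genes, 6 fell and 1 rose in the retina, and 5 fell on average over the tissues. Of 24 rod genes, 3 fell in the retina and 4 on average. Over all genes, 1.39% fell and 0.79% rose in the retina, and 0.494% fell and 0.177% rose on average. None was called in the eye cup, where 0.0211% of genes were. The cone transducin subunit Gnat2 was at 48.6, 44.7 and 48.8 CPM in PRDM13-OE and 167, 173 and 183 CPM in wildtype retinas. The eye cups held 12.3, 15.0 and 46.0 CPM and 102, 85.4 and 63.1 CPM. Its mean log2-fold change was −1.83 ± 0.28 (adjusted p = 0.0101). Gnb3, the β-subunit of cone transducin, gave −2.15 ± 0.33 (adjusted p = 0.0101), cone arrestin Arr3 gave −2.12 ± 0.34 (adjusted p = 0.0109), and Rgs9, which ends the transducin signal, gave −1.90 ± 0.17 (adjusted p = 0.000315). In the eye cups, each of these was highest among PRDM13-OE mice in mouse 3, which also had the most rod transcripts, so the values were also expressed per rod transcript.

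Counts were therefore divided by the summed counts of 23 rod genes in the same library, leaving out those that the study names, and are given per 1000 rod counts. This scaling was chosen after seeing the data. It was applied to 1166 genes whose level in untreated wildtype mice was at least 4-fold higher (2 on the log2 scale) in the retina than in the eye cup, a limit meant to keep genes expressed mainly in the retina. With this scaling, the PRDM13-OE eye cups lay close together for Gnb3, Tulp1, Nr2e3 and Pde6c. They did not for Gnat2, where mouse 2 stood apart, or for Rgs9. Gnat2 was at 0.642, 1.71 and 0.867 in eye cups of PRDM13-OE mice and at 1.53, 1.65 and 1.75 in wildtype, with log2-fold changes of −1.48 in the retina and −0.74 in the eye cup. Rgs9 was at 1.44, 2.27 and 0.795 against 2.13, 3.496 and 3.70 in eye cups, with −1.05 and −1.13. The eye cup genotypes overlapped for both. Gnb3 was at 1.04, 1.06 and 0.947 in the PRDM13-OE retinas and 2.69, 2.71 and 2.90 in the wildtype retinas. Eye cup ratios were 1.04, 1.02 and 0.925 in PRDM13-OE and 2.84, 2.87 and 2.47 in wildtype. The log2-fold change was −1.45 in the retina and −1.45 in the eye cup.

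Tulp1, which supports protein transport in photoreceptors, was at 6.70, 5.91 and 6.398 in the PRDM13-OE retinas and 14.4, 14.5 and 13.9 in the wildtype retinas. Its eye cup values were 5.82, 6.69 and 6.47 against 16.3, 15.4 and 15.1. The rod-specific nuclear receptor Nr2e3, which represses cone genes in rods, was at 2.68, 2.33 and 2.66 against 4.71, 4.76 and 6.16 in retinas and at 2.16, 3.05 and 2.48 against 4.90, 4.35 and 5.28 in eye cups. Each genotype thus had nearly the same ratio in both tissues. Pde6c, the catalytic subunit of the cone phosphodiesterase, was higher in PRDM13-OE, at 2.91, 3.32 and 3.00 against 0.832, 1.01 and 1.04 in retinas and at 2.39, 3.01 and 2.77 against 0.698, 0.899 and 0.701 in eye cups. On the CPM scale its eye cup groups overlapped.

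Samd11 (−0.93 in the retina and −1.17 in the eye cup on the log2 scale per rod count), Nxnl2 (−0.87 and −0.79), Aipl1 (−0.67 and −0.62), Fscn2 (−0.76 and −0.58) and the rod kinase gene Grk1 (−0.47 and −0.92) were lower in both tissues. Of further cone genes, Cnga3 (−1.27 and −1.49), Opn1mw (−1.05 and −1.42) and Arr3 (−1.59 and −1.10) were lower in both tissues without overlap. The genotypes overlapped in 1 tissue or both for Opn1sw (−0.65 and −0.47), Cngb3 (−0.20 and 0.0084) and Pde6h (−0.20 and −0.11). The median over all 1166 genes was 0.24 in the retina and 0.11 in the eye cup on this scale, and values are to be read against that shift. The rods' own phosphodiesterase genes Pde6a (0.34 and 0.10) and Pde6b (0.34 and 0.30) and the regulators Crx (0.32 and 0.13) and Neurod1 (0.30 and 0.31) lay near these medians, and the transducin subunit Gngt1 had 0.22 and 0.89. Of 39 photoreceptor genes with this scaling, PRDM13-OE and wildtype did not overlap in either tissue for 23, with 13 lower and 10 higher. Among all 1166 genes, 3.69% were lower and 16.5% higher in that sense. The photoreceptor genes include those that the study chose on these retinas, so their count is no independent evidence of direction. With 3 libraries against 3, no exact permutation test of a single gene can go below p = 0.1, and no test was run on the list.

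**Figure D4:**
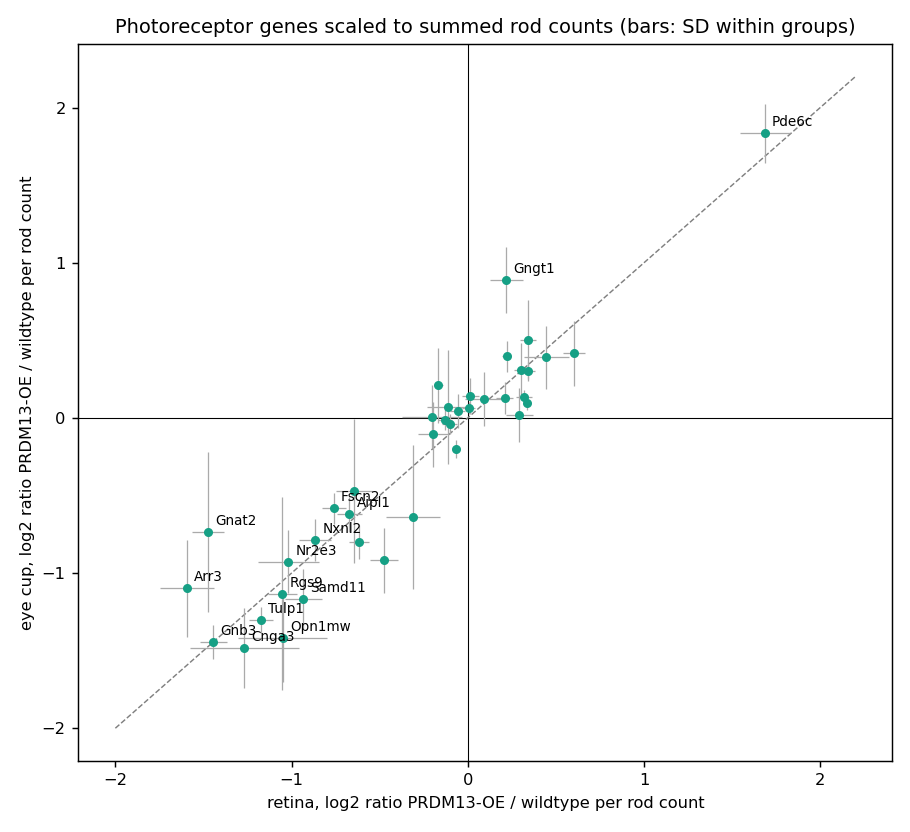
Log2 ratio of PRDM13-OE to wildtype per rod count in the retina (x axis) and in the eye cup (y axis) for 39 photoreceptor genes, with bars for the SD within groups. Gnb3, Tulp1, Nr2e3 and Pde6c lie close to the dashed line of equal effects.

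Of the 35 retina falls among the 1166 genes, 34 (97.1%) kept their sign in the eye cup per rod count, as did all 6 rises, compared with 67.2% of the 1166 genes. The median of the falls was −0.86 in the retina and −0.83 in the eye cup per rod count, while on the CPM scale it was −1.23 and −1.84.

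The promoters of photoreceptor genes often hold the TAATC core that is bound by CRX and OTX2, and PRDM13 has been studied with E-box sites such as CAGCTG. For the 11 photoreceptor genes that were at least 0.5 lower on the log2 scale per rod count in both tissues and whose genotypes did not overlap in either, RefSeq promoter windows were used for 9, as 10 windows. TAATC, on either strand (as GATTA on the other), occurred in 5 of the 10 windows (50%), compared with 19.8% of all 32851 windows. CAGCTG, which reads the same on both strands, occurred in 4 (40%), compared with 13.0% of all windows. Cnga3 gave 2 of the 10 windows. Windows of photoreceptor genes that did not fall were not counted. The shares therefore cannot tell the falling genes from photoreceptor genes in general. The 250 bases upstream of the annotated start are shown for 4 of these genes, whose fall was seen in both tissues, with both motifs in capitals. They lie at chr9:59857363-59857612 for Nr2e3, chr17:28584191-28584440 for Tulp1, chr11:71928336-71928585 for Aipl1 and chr4:156340403-156340652 for Samd11, each on the minus strand of GRCm39.
Nr2e3: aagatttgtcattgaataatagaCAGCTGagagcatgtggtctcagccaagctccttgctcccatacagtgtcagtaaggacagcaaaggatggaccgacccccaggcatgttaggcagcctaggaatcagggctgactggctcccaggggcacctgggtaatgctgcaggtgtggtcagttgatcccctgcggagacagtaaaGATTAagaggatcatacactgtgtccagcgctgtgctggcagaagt
Tulp1: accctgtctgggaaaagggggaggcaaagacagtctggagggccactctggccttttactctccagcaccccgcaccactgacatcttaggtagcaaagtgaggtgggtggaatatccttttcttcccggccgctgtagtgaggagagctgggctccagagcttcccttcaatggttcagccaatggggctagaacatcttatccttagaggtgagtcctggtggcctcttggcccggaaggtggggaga
Aipl1: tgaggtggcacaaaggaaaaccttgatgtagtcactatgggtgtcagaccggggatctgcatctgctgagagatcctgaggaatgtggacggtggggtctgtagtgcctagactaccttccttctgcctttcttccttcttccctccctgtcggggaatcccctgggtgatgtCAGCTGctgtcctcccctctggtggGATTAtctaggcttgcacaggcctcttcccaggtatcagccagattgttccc
Samd11: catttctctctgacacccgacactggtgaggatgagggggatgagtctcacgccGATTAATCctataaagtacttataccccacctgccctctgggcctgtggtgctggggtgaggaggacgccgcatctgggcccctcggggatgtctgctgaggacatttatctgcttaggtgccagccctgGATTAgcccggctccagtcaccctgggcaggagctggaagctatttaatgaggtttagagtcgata
Nr2e3 and Aipl1 held 1 of each motif and Samd11 held 3 copies of TAATC, of which an adjoining pair overlaps in the letters GATTAATC. Tulp1 held neither motif in this window. A match describes the letters and not binding.

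The 23 genes that the study names for the retina were then followed into the eye cup. In the retina, 19 fell and 3 rose, where 1.39% of all genes were called lower and 0.79% higher. On average over both tissues, 9 fell and 1 rose. The list was chosen on these retinas, so its retina count is no independent evidence. The eye cup log2-fold change of the photoreceptor genes among them had the sign of the retina change, except that Pde6c, at 0.92 with all mice, was at −0.12 without PRDM13-OE mouse 3 and its eye cup groups overlapped. Nr2e3 was at 174, 155 and 193 CPM in PRDM13-OE and 426, 438 and 543 CPM in wildtype retinas, and at 41.4, 26.8 and 132 CPM and 325, 225 and 191 CPM in eye cups. Its mean log2-fold change was −1.66 ± 0.33 (adjusted p = 0.0331), and that of Tulp1 was −1.91 ± 0.35 (adjusted p = 0.0267). Others had an eye cup change close to 0: Slc6a13, Igfbp7, Htra3, Slc39a12, Abi3bp and Chrnb4 were all called lower in the retina and had eye cup log2-fold changes between −0.05 and 0.32. Tpm2, a muscle tropomyosin, was not called in the retina (−0.19) and had 1.32 in the eye cup, with skeletal muscle genes highest in the same libraries.

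Slc6a13, the GABA transporter GAT2 of the RPE and meninges at chr6:121277186-121314692, showed the contrast most clearly. In the retinas it was at 4.39, 5.36 and 5.10 CPM in PRDM13-OE and 18.5, 18.0 and 19.4 CPM in wildtype, and in the eye cups at 126, 397 and 142 CPM and 147, 216 and 283 CPM. The retina groups were apart and the eye cup groups overlapped. The log2-fold change was −1.88 ± 0.12 (adjusted p = 1.04e-07) in the retina and 0.04 ± 0.46 in the eye cup, and the interaction was 1.80 (95% interval 0.84 to 2.76, adjusted p = 0.749 over all genes). Its level in the 6 untreated retinas ranged from 2.07 to 23.6 CPM, with the highest value in the library labelled as PRDM13-OE mouse 1, and reached 8.67 CPM in the other 5. Without PRDM13-OE mouse 3 the interaction was 2.07 (adjusted p = 0.021).

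Further genes were singled out after their values were seen, since their retina effect was close to 0 in the eye cup. Ccl9, a chemokine, was at 0.713, 0.715 and 0.851 CPM in PRDM13-OE and 4.64, 4.29 and 4.50 CPM in wildtype retinas, with 3.79 to 5.37 CPM in all untreated retinas. Its interaction was 2.43 (95% interval 1.30 to 3.55), against an eye cup log2-fold change of −0.08. Scara3 gave −1.39 in the retina and 0.22 in the eye cup. Scara5, a ferritin receptor, rose by 1.53 in the retina and was at −0.04 in the eye cup, with an interaction of −1.59 (95% interval −2.36 to −0.81). The 2 tissues differed in level as well: Scara5 was at 8.17 to 10.8 CPM in the PRDM13-OE retinas and at 16.1 to 27.5 CPM in their eye cups. Each of these intervals lay away from 0, yet none of the interactions passed the adjustment over all genes.

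Some retina falls rested on wildtype retinas 1 and 2, which carried lens transcripts. Wnt7b, a Wnt ligand of surface epithelia, was at 23.1, 23.1 and 0.113 CPM in the wildtype retinas and at 0.110, 0.051 and 0.050 CPM in the PRDM13-OE retinas, so wildtype retina 3 was close to PRDM13-OE. Igfbp7 and Htra3 had the same pattern, with wildtype retina 3 at 30.3 and 2.48 CPM against 20.2 to 28.6 and 2.63 to 3.32 CPM in PRDM13-OE. Fgfr3 was at 10.49, 8.53 and 0.788 CPM against 0.494, 0.919 and 0.5004 CPM. Lgals3, an epithelial and macrophage galectin, was at 6.28, 7.13 and 2.48 CPM against 0.165, 0.306 and 0.550 CPM. For Lgals3, wildtype retina 3 thus also lay above every PRDM13-OE retina. Wnt7b in the eye cups was at 157, 105 and 33.6 CPM in PRDM13-OE and 29.9, 27.98 and 47.0 CPM in wildtype. Among the 9 genes that DESeq2 called for the interaction, all positive, 6 were highest, of the 6 retinas, in wildtype retina 1 or 2, with Lgals3, the lens genes Bfsp2 and Sox1, Sox1ot next to Sox1, and the epithelial gene Tmem40 among them. The lens crystallins themselves fell in the retina for all 16 members, where 1.39% of genes were called lower, and on average over the tissues for 15. Cryaa was at 4533, 2210 and 34.8 CPM in the wildtype retinas and at 5.82, 10.1 and 0.951 CPM in the PRDM13-OE retinas. Its eye cup values were 31.6, 149 and 1.22 CPM in PRDM13-OE and 1429, 297 and 279 CPM in wildtype. The genotypes were apart in both tissues, although untreated wildtype and PRDM13-OE retinas also ranged from 0.761 to 303 CPM.

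Msln was high in the PRDM13-OE eye cups and close to absent from every retina. It encodes mesothelin, a surface protein of mesothelial cells, at chr17:25967587-25973352. Its level was 94.1, 161 and 51.2 CPM in eye cups of PRDM13-OE mice and 4.74, 3.39 and 7.43 CPM in wildtype ones, with 0.637 to 6.63 CPM in untreated ones. All retinas with dox were at or below 0.169 CPM, which is at most 3 counts. The eye cup log2-fold change was 4.29 ± 0.50 (edgeR adjusted p = 0.123; DESeq2 adjusted p = 1.67e-14). The interaction was called in DESeq2 (adjusted p = 0.0228) but not in edgeR, and with so few retina counts its size is not measured here. All 3 PRDM13-OE eye cups were far above the rest. Without PRDM13-OE mouse 3, the eye cup log2-fold change was 4.61 (adjusted p = 0.00619). Tppp3, a tubulin-binding protein, was at 251, 257 and 165 CPM against 129, 109 and 86.3 CPM in the eye cups, where untreated ones held 125 to 292 CPM, with a retina log2-fold change of −0.08. The ribosomal protein gene Rpl17, which has near-identical pseudogenes elsewhere, was at 220, 145 and 145 CPM against 68.0, 63.8 and 90.4 CPM, and untreated eye cups were at 123 to 243 CPM (123 to 146 CPM without the one labelled as PRDM13-OE mouse 1). Both are DESeq2 interaction calls (adjusted p = 0.0271 each).

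Dapl1, a gene of the RPE, was called lower in the retina but had a level in every PRDM13-OE eye cup above that in wildtype. It was at 11.0, 11.6 and 15.5 CPM in PRDM13-OE and 31.8, 29.8 and 20.4 CPM in wildtype retinas, and at 200.3, 154 and 75.3 CPM and 68.3, 57.4 and 73.8 CPM in eye cups. The log2-fold changes were −1.07 and 1.11 and the interaction was 2.10 (95% interval 0.99 to 3.22, unadjusted p = 0.00237, adjusted p = 0.749). The eye cup of PRDM13-OE mouse 3 was only slightly above the wildtype eye cups. Of 11 pigment cell genes, 4 fell and 1 rose in the retina, where 1.39% of all genes fell and 0.79% rose, and 0 were called in the eye cup. Pmel, a melanosome protein, was at 4.33, 9.40 and 5.40 CPM against 29.3, 34.1 and 14.8 CPM in retinas, and its eye cup groups overlapped (380 to 1185 CPM and 322 to 1314 CPM).

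The lists of cell types and pathways gave few further calls. Neurons of the inner retina had 0 calls in either tissue for amacrine (17 genes), bipolar (12), horizontal (6) and ganglion cells (13), where 2.18% of all genes were called in the retina and 0.0211% in the eye cup. Their median eye cup log2-fold changes lay between −1.10 and −0.63, against 0.05 over all genes, and their medians in the retina between −0.51 and −0.10. Rod genes had medians of −0.43 and −0.83. Eye cup medians were thus lower than retina medians for every neuron type of the retina, in libraries of which 2 held fewer rod transcripts. Skeletal muscle and surface epithelium had medians of 1.45 and 1.05 in the eye cup, with 0 calls there.

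Wnt pathway genes (43) had 3 calls in the retina, all lower (1.39% over all genes), and a median of −0.31 there and 0.07 in the eye cup. Of 24 FGF pathway genes, 2 fell in the retina, against the same 1.39%. The Wnt calls included Wnt7b and Wnt7a (4.48, 2.22 and 0.0563 CPM in the wildtype retinas and at most 0.0549 CPM in PRDM13-OE), and the FGF calls were Fgfr3 and Fgfr2 (10.1, 11.6 and 4.39 CPM against 1.81, 2.15 and 2.45 CPM), so all of these were highest in the lens-carrying wildtype retinas 1 and 2. The interferon and MHC class I list (18) had medians of 0.17 and 0.70 without a call. Microglia (12), RPE and visual cycle (11), circadian clock (16) and p53 target (14) genes had no calls in either tissue. Rpe65, the RPE isomerase that renews visual pigment, was at 466, 898 and 461 CPM in PRDM13-OE and 553, 673 and 1259 CPM in wildtype eye cups. Of 20 immediate early genes, 2 rose in the retina, where 0.79% of all genes did, and the median was 0.46 in the retina and 0.45 in the eye cup. Egr1, a transcription factor induced by activity, rose by 1.67 in the retina (adjusted p = 0.0136). It was at 125, 94.8 and 97.3 CPM in PRDM13-OE and 78.3, 44.9 and 34.1 CPM in wildtype eye cups, a log2-fold change of 1.03 with no overlap but without a call.

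**Figure D5:**
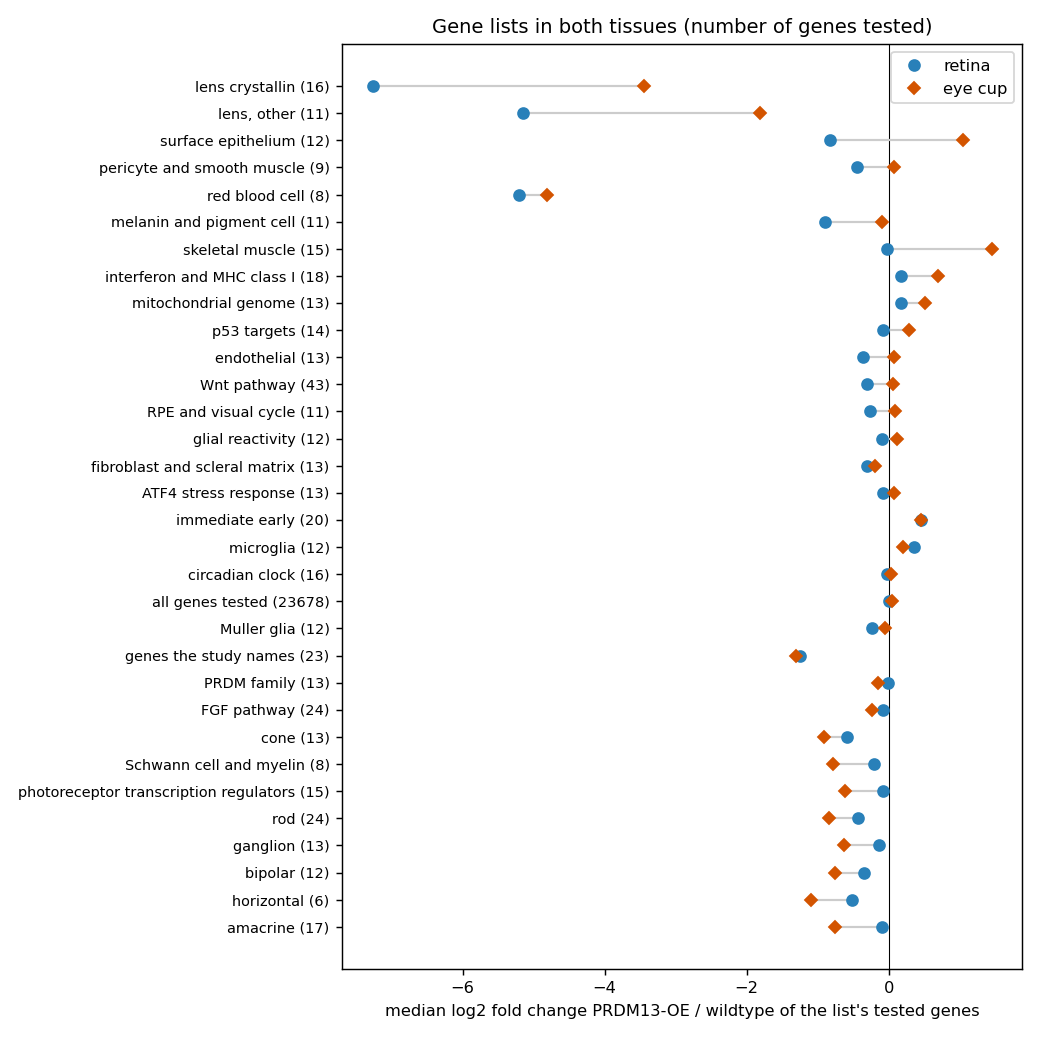
Median log2-fold change of PRDM13-OE over wildtype for the tested genes of each list other than the sex-linked, PRDM13 network and insertion site genes, as circles for the retina and diamonds for the eye cup, with the number of genes in brackets. Of the lists shown, lens and red blood cell genes were lowest in both tissues, and neuron types of the retina had lower medians in the eye cup than in the retina.

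Mouse Prdm13 itself was at 54.3, 56.0 and 49.2 CPM in PRDM13-OE and 48.3, 47.4 and 44.5 CPM in wildtype retinas, and at 10.3, 3.28 and 32.8 CPM and 32.4, 27.1 and 17.7 CPM in eye cups. The log2-fold change was 0.22 ± 0.07 in the retina (adjusted p = 0.0462, short of the fold cutoff) and −0.71 ± 0.70 in the eye cup, where the PRDM13-OE values followed rod content. Of its network, Pax2 and Neurog2 were not called in either tissue. At the insertion site on chromosome 6, the noncoding host gene Gt(ROSA)26Sor was at 15.2, 17.0 and 13.8 CPM against 10.7, 9.00 and 10.1 CPM in retinas and at 12.7, 12.9 and 17.2 CPM against 10.8, 8.85 and 9.24 CPM in eye cups. Its log2-fold changes of 0.66 and 0.58 differed by −0.07 (95% interval −0.69 to 0.55). The neighbour Setd5 had 0.37 and 0.02, and neither passed the fold cutoff.

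The number of interaction calls depended on PRDM13-OE mouse 3, whose eye cup was rich in rod transcripts. Without it, 23091 genes were tested, and the interaction was higher for 488 and lower for 1049 (6.66% called). The eye cup comparison then called 578 genes higher (2.5%) and 1261 lower (5.46%), 73 genes were called in both tissues, 99 were limited to the retina and 1120 to the eye cup. Lower interactions were then called for 11 of 24 rod, 11 of 17 amacrine, 9 of 12 bipolar, 4 of 6 horizontal and 9 of 13 ganglion cell genes, where 4.54% of all genes were. Higher interactions were called for 4 of 15 skeletal muscle genes (2.11% of all genes), and 9 of the 15 were higher in the eye cup, where 2.5% of all genes were. Nr2e3 (−1.35, adjusted p = 0.0408), Tulp1 (−1.62, adjusted p = 0.0245) and Rgs9 (−1.15, adjusted p = 0.0312) were among the lower interactions, and Slc6a13, Ccl9 and Scara3 (2.07, 2.87 and 1.79) among the higher. Gulo and Kdr had no such call, with interactions of −0.23 and −0.52. The remaining PRDM13-OE eye cups, of mice 1 and 2, had the fewest rod transcripts and the most epithelial transcripts of the 6, and which part of these calls follows from that was not tested.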

How the data were processed

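Neural retinas and eye cups of 12 mice were sequenced as polyadenylated RNA by Novogene, and the 12 libraries of the 6 mice given dox were tested. Per the labels, reads were base-called with CASAVA and mapped with HISAT2 to GRCm39 (mm39). The counting tool, the annotation release and the strand setting were not given in the sources used here, so reads of a gene and its antisense partner cannot be told apart. The authors deposited unnormalized read counts for 56748 genes. The FPKM values and the authors' own comparisons (mean normalized counts, log2-fold changes, p-values) in the same deposited table were not used.

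Genes with at least 10 counts over the 12 libraries were tested in edgeR 4.0.16 (R 4.3.3, TMM, quasi-likelihood test, Benjamini-Hochberg adjustment over all 23678 genes). The retina and the eye cup were each fitted on 6 libraries. The interaction was fitted over 12 libraries with mouse as a fixed block, which leaves 4 residual degrees of freedom, and the mean effect over 4 groups. Calls needed an adjusted p under 0.05 and a log2 value beyond 1 in size. CPM values share 1 TMM scale, and floors of 3 counts and intervals of 95% cover counting error and spread between these libraries. The titles give each mouse's number in both tissues, which pairs the libraries. Same-mouse deviations from the group means correlated at −0.000494 to 0.119 across genes, and no 2 of the libraries within a group were copies. P-values rest on 3 mice per genotype.

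Named genes were those called in both tissues, the 6 like-sized retina calls with the smallest interaction, the 6 largest mean rises and falls without overlap, the genes the study names, the PRDM13 network, the insertion site, sex genes, and members of each list that passed the interaction or had the highest CPM. Others were chosen after their values were seen. Members and lists were chosen with earlier results of these data known. The scaling per rod count was added after seeing the data.

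In simulated counts (23142 genes), a log2 change of 2 in the eye cup alone was called by the interaction for 70.5% of 200 genes, and a change in both tissues was called in both for 75%. With a log2 change of 4 (23134 genes), the shares were 93.5% and 95.5%. Among unchanged genes, the interaction falsely called 21 and 22 genes in these runs, and the eye cup fit 27 and 30. The counts were drawn independently for each library, without a mouse effect or a shared shift in tissue content. Changed genes averaged at least 1 CPM. The real eye cups differed in content, so these shares are not the power of the present comparison.

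Alternatives were DESeq2 1.42.0, library size scaling, TMM within each tissue, no filter, filterByExpr, robust dispersion, voom in limma 3.58.1 with mouse as a random block, 1 edgeR fit without a block, other fold cutoffs and leaving out each mouse. Promoter windows and motifs were read from RefSeq tables, and Gm13394 from GENCODE transcripts and the GRCm39 genome. A few genes are not reported here.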

Additional observations from a re-analysis of the deposited data

Results flagged for a closer look

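Dapl1 and Cpb2 were flagged because every PRDM13-OE library lay below wildtype in 1 tissue and above it in the other. They were 2 of the 517 retina calls, and 130 of all 23678 genes met the same condition, so it was not more frequent among the calls. For Dapl1 the difference between the tissues was 2.10 on the log2 scale (unadjusted p = 0.00237, adjusted p = 0.749 in edgeR), and it was 2.65 without PRDM13-OE mouse 3 (adjusted p = 0.00763). For Cpb2, a carboxypeptidase with few counts, it was −7.58 ± 8.03 (SE, unadjusted p = 0.0113, adjusted p = 0.749).

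Gm13394 was flagged in libraries outside the comparisons. Without dox, PRDM13-OE mice 2 and 3 had 472 and 450 CPM in the retina and 382 and 232 CPM in the eye cup, compared with at most 4.96 CPM in untreated wildtype mice, whereas the libraries labelled as untreated PRDM13-OE mouse 1 were at the wildtype level in both tissues.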

How the results depend on the processing

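Interaction calls rose from 0 to 9 with DESeq2 and ranged from 0 to 1537 when a mouse was left out. The highest value came without PRDM13-OE mouse 3, and the next was 3, without wildtype mouse 3. Leaving out a mouse gave 350 to 524 retina calls, 0 to 1839 eye cup calls, 18 to 933 mean effect calls, 0 to 73 shared calls, 0 to 99 retina-limited calls, 0 to 1120 eye cup-limited calls and 7 to 18 like-sized calls (7 without wildtype mouse 1 or 2). DESeq2 gave 87 eye cup, 380 mean effect, 32 shared, 4 retina-limited and 2 eye cup-limited calls. Without the filter there were 8 eye cup calls, and with filterByExpr 3 eye cup and 3 shared calls. The numbers in the titles pair the libraries by mouse. With mouse as a random replicate block in limma voom (correlation 0.000906) there were 0 interaction and 3 shared calls. With 1 edgeR fit of 4 groups and no replicate block there were 0 interaction, 38 retina, 49 eye cup, 15 shared and 6 like-sized calls, since all groups then share 1 estimate of spread. No fold cutoff gave 2625 retina, 365 mean effect and 829 like-sized calls, and a cutoff of 2 gave 173, 60 and 1. The retina calls split into 187 higher and 330 lower here, 283 and 290 with library size scaling, 240 and 232 with robust dispersion and 413 and 294 with voom. Library size scaling also moved the median interaction over all genes to −0.19. The cause of the other shifts was not tested. Of 8808 single-gene values under alternatives, 8282 kept their status, which includes values uncalled in both fits, and 0 reversed a called direction. Among values uncalled in both fits, 306 changed sign.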
